A study of Homo sapiens with 52 samples.

Results

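The heat shock chaperones examined here were 10 genes, HSPA1A, HSPA1B, HSPA8, HSPH1, HSP90AA1, HSPB1, HSPD1, HSPE1, DNAJB1 and BAG3, out of 78894 genes in the deposited tables. They were chosen by gene name, and all 10 had counts in every library and passed the filter on low counts in all 3 cell lines. The 52 libraries were stranded poly(A) RNA-seq of 3 established claudin-low breast cancer cell lines, SUM159PT (17 libraries), MDA-MB-231 (18 libraries) and HS578T (17 libraries). Claudin-low lines are breast cancer lines with mesenchymal traits and little tight junction claudin. In each line NRP1, which encodes the co-receptor neuropilin-1, was reduced in 4 ways. The reagents siNRP1#3 and siNRP1#5 were siRNAs reverse transfected at 20 nM with RNA taken after 72 hours, beside a non-targeting siRNA, siNT. The reagents shNRP1#3 and shNRP1#5 were lentiviral shRNAs expressed after puromycin selection with RNA taken 48 hours after seeding, beside a non-targeting shRNA, shNT. The #5 reagents shared a sequence and target transmembrane and soluble NRP1 transcripts, whereas the #3 reagents target the transmembrane form and differ in sequence between siRNA and shRNA. Groups held 3 libraries each, but SUM159PT siNRP1#5 is analysed here without a replicate 1 and HS578T shNRP1#3 without a replicate 3. The shRNA replicates were consecutive passages of a transduced culture. In the main fits their p-values rest on a spread pooled over siRNA replicates and shRNA passages, and not on passages alone.

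Heat shock proteins bind unfolded polypeptides and keep them from aggregating. HSP70 proteins work in cycles with a J-domain protein, which brings the client and triggers ATP hydrolysis, and a nucleotide exchange factor, which releases it, and HSP90 receives clients such as kinases and steroid receptors from HSP70. Under proteotoxic stress the transcription factor HSF1 trimerises and binds heat shock elements, which are inverted repeats of the unit GAA, in the promoters of these genes. Cancer cells often hold high levels of chaperones outside any heat stress.

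The libraries held between 25310443 and 72003442 expected counts, with a median of 44804505, and the lowest count of any member in any library was 700. NRP1 itself fell in 11 of the 12 knockdown comparisons, by 0.70 to 4.88 on the log2 scale, and in the remaining one, HS578T shNRP1#3 against shNT, its log2 fold change was -1.59 with an adjusted p of 0.0690. Library-size-scaled counts (CPM, counts scaled to a common library total) showed the mesenchymal gene VIM at 1519 CPM or more in every library and the epithelial cadherin gene CDH1 at 9.11 CPM or less. Other genes listed for the claudin-low state were lower than VIM. Their medians per line were 13.8 to 31.5 CPM for ZEB1, 6.25 to 28.1 CPM for SNAI1 and 41.9 to 278.6 CPM for ITGA6. SNAI1 went down to 0.924 CPM in HS578T and 3.44 CPM in MDA-MB-231. The claudin genes varied. In MDA-MB-231 CLDN3 was at 2.25 to 9.36 CPM, CLDN7 at 6.54 to 53.7 CPM and CLDN4 at 61.9 to 292 CPM, whereas the medians of these 3 genes in the other lines were at most 3.18 CPM. The 3 HS578T siNRP1#5 libraries stood apart. Genes that the MDA-MB-231 controls expressed and the HS578T controls did not were at 22.6%, 22.6% and 12.0% of their MDA-MB-231 level there by 3 marker genes (replicates 1 to 3). By 53 marker genes, chosen after seeing the data as absent from the HS578T shNT controls alone, the values were 25.3%, 17.9% and 13.1%. Replicate 2 of that group also held 6.74% of the SUM159PT level of 11 marker genes. In HS578T siNRP1#3 the share was 1.94%, 2.90% and 6.70% by 3 markers and 2.57%, 2.97% and 7.09% by 53. In HS578T siNT it was 0.644% to 1.18% and 0.644% to 2.19%, and in the HS578T shRNA libraries at most 0.408% and 0.421%. Low values in the controls used to choose the markers follow from that choice. These were siNT and shNT for the 3 markers and shNT for the 53. The member values of HS578T siNRP1#5 against siNT are therefore given as deposited and again after subtraction of that share.

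Levels between genes were compared as TPM, transcript abundances scaled to a common library total after adjustment for transcript length. HSPA8, the constitutive cytosolic HSP70, had the highest median over the 52 libraries at 1760.1 TPM. The small heat shock protein HSPB1, which holds unfolded clients without ATP, followed at a median of 940.0 TPM. HSP90AA1, the stress-responsive cytosolic HSP90 isoform, had a median of 608 TPM. The mitochondrial chaperonin HSPD1 (HSP60) stood at 309.6 TPM and its lid HSPE1 (HSP10) at 392 TPM. The remaining members were lower. DNAJB1, a J-domain partner of HSP70, had a median of 104 TPM, the stress-inducible HSP70 genes HSPA1B and HSPA1A had 80.5 and 70.7 TPM, BAG3, a nucleotide exchange factor that links HSP70 to autophagy, had 63.8 TPM, and HSPH1, the HSP110 exchange factor, had 55.4 TPM. Most neighbours in that order overlapped over the libraries of each line. In SUM159PT, for example, HSPA8 ran from 434 to 2969 TPM and HSPB1, next in the order, from 520.2 to 1301 TPM. The exceptions were HSPD1 over DNAJB1 in SUM159PT and MDA-MB-231, and HSPB1 over HSP90AA1 and HSPA1A over BAG3 in HS578T. In bulk RNA, fewer cells of one state and less RNA per cell cannot be told apart.

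**Figure D1:**
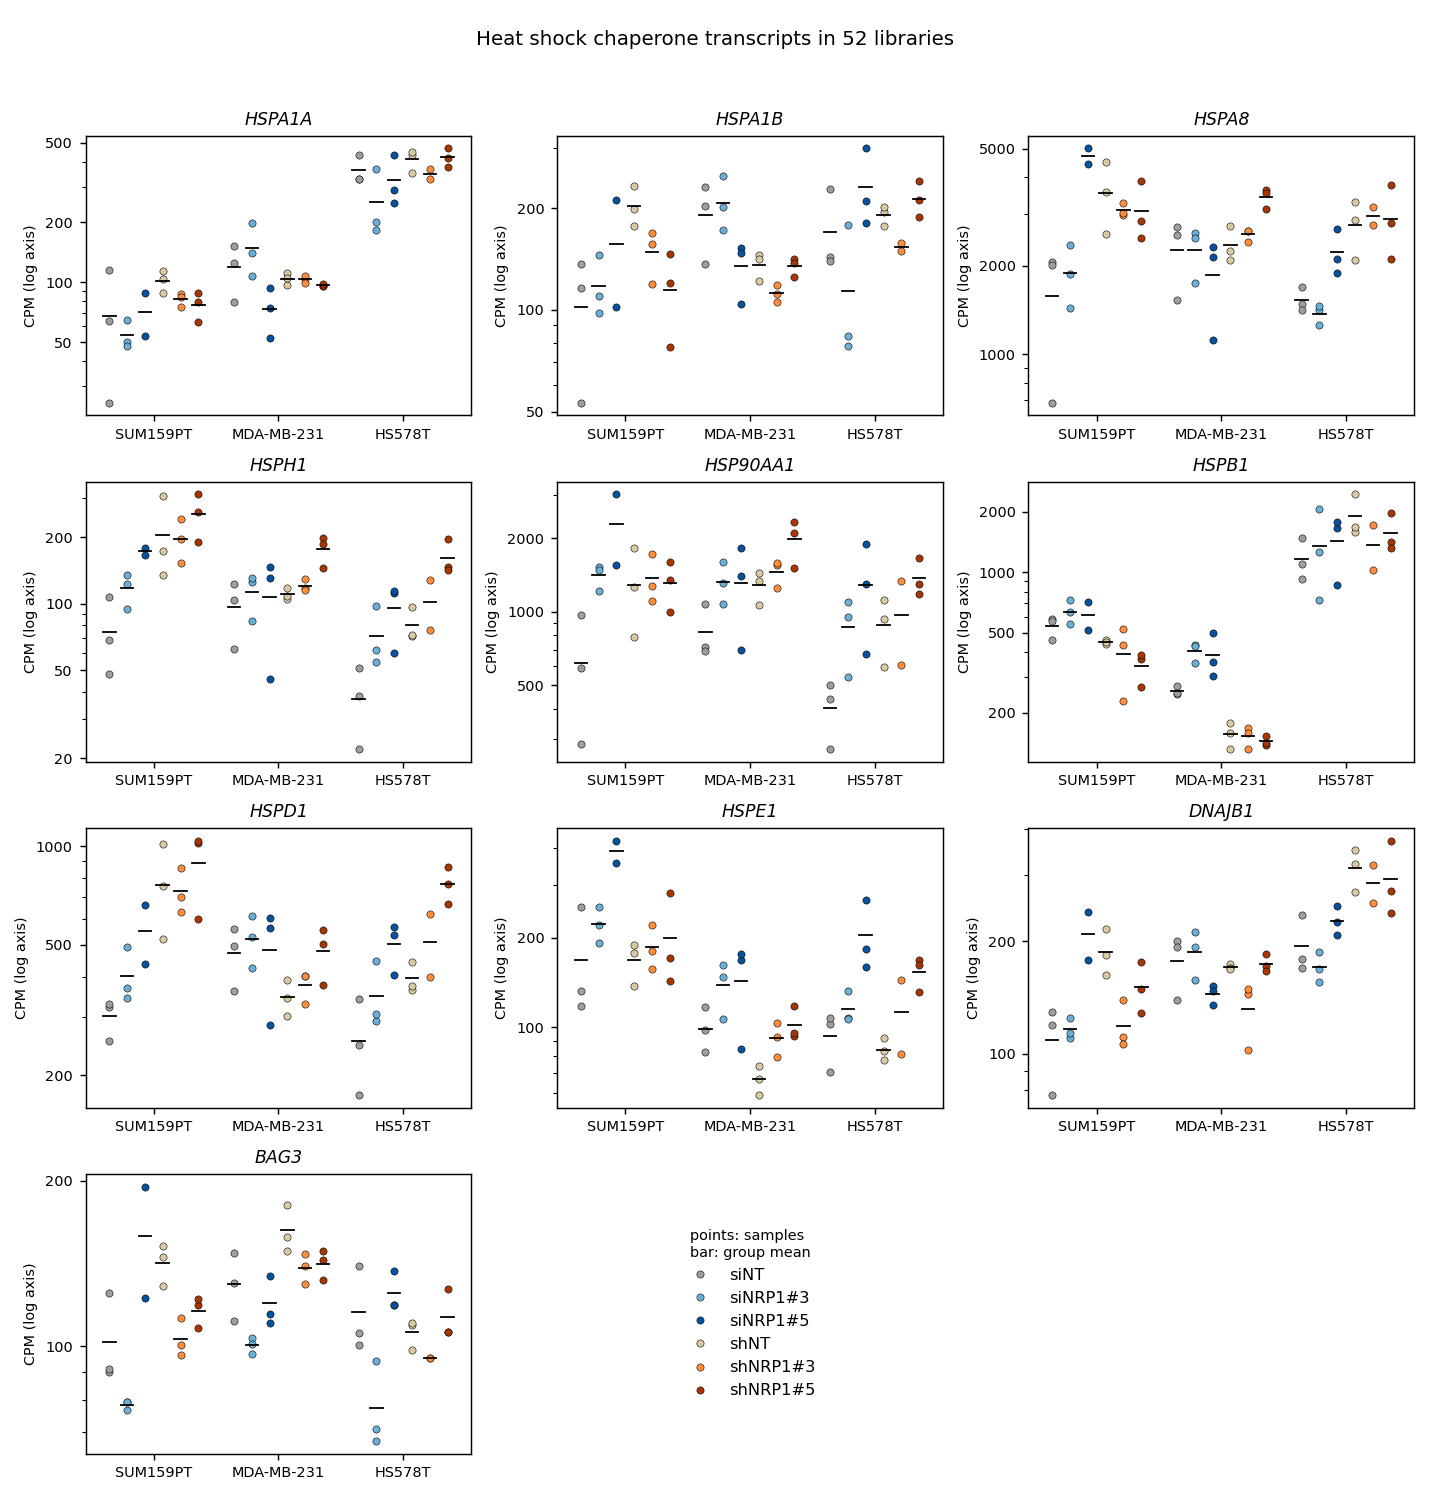
Each panel plots 1 member in CPM on a log axis, with 1 point per library, the 6 groups of a cell line side by side and a bar at the group mean. HSPA8 lay above 600 in every library, whereas HSPH1 went from 22.1 to 313.

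In the non-targeting controls (siNT and shNT averaged, 6 libraries a line), the lines differed most in HSPB1 and HSPA1A. HSPB1 was at 2164 ± 736 TPM (SD) in HS578T, 913 ± 86.9 TPM in SUM159PT and 492 ± 108 TPM in MDA-MB-231. The 3 lines did not overlap for HSPB1, with 1416 to 3358 TPM, 845 to 1079.8 TPM and 339.9 to 596 TPM. A gene is termed called where its adjusted p was below 0.05 in the quasi-likelihood test of edgeR, adjusted by Benjamini-Hochberg over all genes tested. All 3 pairs were called for HSPB1, with log2 fold changes of 2.89 ± 0.21 (SE) for HS578T over MDA-MB-231, 1.60 ± 0.20 for HS578T over SUM159PT and -1.29 ± 0.20 for MDA-MB-231 over SUM159PT. HSPA1A was at 157 ± 27.4 TPM in HS578T, 76.7 ± 17.5 TPM in MDA-MB-231 and 44.9 ± 18.5 TPM in SUM159PT, and HS578T lay above both others (log2 fold change 1.80 ± 0.22 and 2.22 ± 0.23) while MDA-MB-231 and SUM159PT were not called different (adjusted p = 0.0890). HSPH1 was lowest in HS578T at 18.6 ± 9.54 TPM, against 54.5 ± 12.4 TPM in MDA-MB-231 and 58.3 ± 38.3 TPM in SUM159PT. The percentage of all 23416 tested genes that differed was high for each pair, so that these counts were read against it. Between MDA-MB-231 and SUM159PT 3 of 10 members differed (59.4% of all genes), with HSPB1 and HSPE1 lower and BAG3 higher in MDA-MB-231. The BAG3 value was 0.27 on the log2 scale (adjusted p = 0.0312), and the call was lost with no filter on low counts (adjusted p = 0.228) and with the replicate block (0.12, adjusted p = 0.510). Between HS578T and SUM159PT 6 of 10 differed (63.5% of all genes), with HSPA1A, HSPB1 and DNAJB1 higher and HSPH1, HSPE1 and HSPD1 lower in HS578T. Between HS578T and MDA-MB-231 6 of 10 differed (70.2% of all genes), with HSPB1, HSPA1A and DNAJB1 higher and HSPH1, HSP90AA1 and BAG3 lower in HS578T. None of these shares was above that of all genes. The replicate block, under which libraries share only a number, added HSPA8 and HSPH1 to the first pair and HSPA8 and HSP90AA1 to the second, each lower than in SUM159PT. With no filter HSPA1A was called in the first pair (adjusted p = 0.0240), HSP90AA1 in the second (9.05e-05) and HSPD1 in the third (0.0224), and DESeq2 called DNAJB1 in the first (0.0438).

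HSPA1A and HSPA1B lie 12195 bases apart, start to start, on chromosome 6 (GRCh38), at chr6:31815543-31817946 and chr6:31827738-31830254, each with a leading transcript of 1 exon. Their coding sequences of 1923 bases differed at 4 positions, so that a fragment between those positions matches both genes and was divided by probability in the counting. The split between the genes is therefore uncertain, and their sum is given beside them. Of the summed counts, HSPA1A took 57.9% to 70.5% in HS578T, 33.3% to 50.3% in MDA-MB-231 and 29.3% to 45.5% in SUM159PT. The HS578T range did not overlap with the others. The HSPA1B row had 69.2 ± 13.5 TPM in the HS578T controls, 77.9 ± 36.1 in SUM159PT and 106.1 ± 26.1 in MDA-MB-231. The other members lie on chromosome 11 (HSPA8, chr11:123057489-123063230), 13 (HSPH1, chr13:31134973-31162388), 14 (HSP90AA1, chr14:102080742-102139699), 7 (HSPB1, chr7:76302673-76304295), 2 (HSPD1, chr2:197486584-197516737, and HSPE1, chr2:197500140-197503449), 19 (DNAJB1, chr19:14514769-14560391) and 10 (BAG3, chr10:119651380-119677819). HSPH1, DNAJB1 and BAG3 had whole-number counts in all 52 libraries, which leaves no divided fragments. Counts of processed pseudogenes were at most 3.12% of those of HSPE1, 0.95% of HSPD1 and 0.70% of HSP90AA1. HSPE1 had a whole-number count in no library. A separate gene row, HSPE1-MOB4, is not among these pseudogenes. It was called in SUM159PT siNRP1#5 over siNT by edgeR (log2 fold change 1.82, adjusted p = 0.0121). The part of HSPE1 fragments divided with it was not tested.

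The promoters of members with a heat shock element are shown because several members moved together below. Sequences are RefSeq windows on GRCh38.p14, 250 bases before each annotated start, written 5′ to 3′ on the strand of the gene, and capitals mark the 3-unit match or, in a window without one, the 2-unit match. Searched on both strands were 3 units in a row (GAANNTTCNNGAA or TTCNNGAANNTTC) and 2 units in a row (GAANNTTC or TTCNNGAA), and a 3-unit match contains 2-unit matches. The 3-unit form was in 155 of 35116 windows (0.441%) and the 2-unit form in 4067 (11.6%). HSPA8, HSP90AA1 and HSPD1 held 3 units.
HSPA8, chr11:123062346-123062374, minus strand, first capital 230 bases before the start: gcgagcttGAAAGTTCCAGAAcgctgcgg
HSPA8, chr11:123062171-123062199, minus strand, first capital 55 bases before the start: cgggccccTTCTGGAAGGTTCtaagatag
HSP90AA1, chr14:102087090-102087162, minus strand, first capital 88 bases before the start: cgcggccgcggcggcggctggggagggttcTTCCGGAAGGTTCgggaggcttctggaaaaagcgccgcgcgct
HSPD1, chr2:197500062-197500090, minus strand, overlapping matches from 245 bases before the start: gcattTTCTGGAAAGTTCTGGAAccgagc
HSPA1A, HSPA1B, HSPB1 and DNAJB1 held 2 units but not 3.
HSPA1A, chr6:31815407-31815474, plus strand, first capital 106 bases before the start: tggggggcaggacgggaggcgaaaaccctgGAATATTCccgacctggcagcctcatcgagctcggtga
HSPA1B, chr6:31827603-31827670, plus strand, first capital 105 bases before the start: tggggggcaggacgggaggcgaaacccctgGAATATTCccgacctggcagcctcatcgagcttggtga
HSPB1, chr7:76302461-76302528, plus strand, first capital 182 bases before the start: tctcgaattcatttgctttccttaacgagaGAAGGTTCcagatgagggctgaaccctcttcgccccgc
DNAJB1, chr19:14518437-14518474, minus strand, matches from 77 and 47 bases before the start: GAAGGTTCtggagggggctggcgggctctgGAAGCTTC
The windows of HSPH1, HSPE1 and BAG3 held neither form in these letters. The leading transcripts of HSPD1 and HSPE1 are transcribed away from each other on chromosome 2, although the annotated span of HSPD1 contains HSPE1. The HSPD1 stretch lies close to the annotated start of HSPE1, just outside the HSPE1 window (chr2:197500129-197500378). For 9 of the 10 members the most abundant transcript in these libraries begins at the start of such a window, and that of HSPH1 begins 461 bases away. The stretches of HSPA8 and HSPD1 lie inside exons of other annotated transcripts, and the others lie outside any exon.

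In SUM159PT, 7 of the 10 members rose with siNRP1#5 over siNT and none fell, where 17.9% of all 20067 genes were called. HSP90AA1 was at 587, 288 and 974 CPM in siNT replicates 1, 2 and 3 and at 3025 and 1556 in siNRP1#5 replicates 2 and 3. Both knockdown libraries lay above all controls, and the fold was 3.76 (log2 fold change 1.91 ± 0.42 SE, adjusted p = 0.00662). HSPA8 was at 685, 2053 and 2003 CPM in siNT and at 4438 and 5006 CPM in siNRP1#5. The groups again did not overlap, though siNT replicate 1 lay far below the other 2 controls (3.00-fold, log2 fold change 1.58 ± 0.36, adjusted p = 0.00820). HSPE1 was at 133, 118 and 254 CPM in siNT and at 424 and 358 CPM with siNRP1#5, a log2 fold change of 1.23 ± 0.32 (adjusted p = 0.0141). Its partner HSPD1 was at 324, 254 and 331 CPM against 662 and 437 CPM, a log2 fold change of 0.88 ± 0.29 (adjusted p = 0.0490). For both parts of the mitochondrial chaperonin every knockdown library was above every control.

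Among the HSP70 partners in the same comparison, HSPH1 was at 68.8, 48.4 and 107 CPM in siNT and at 179.6 and 167 CPM with siNRP1#5 (log2 fold change 1.22 ± 0.34, adjusted p = 0.0214). DNAJB1 was at 77.6, 129 and 119 CPM against 178 and 240.1 CPM (log2 fold change 0.95 ± 0.23, adjusted p = 0.0114). The groups did not overlap for either gene. BAG3 was at 90.0, 90.8 and 125 CPM against 123 and 195 CPM, so replicate 2 of siNRP1#5 lay below the highest control (log2 fold change 0.65 ± 0.21, adjusted p = 0.0404). Not called were the stress-inducible HSPA1A (24.8, 115 and 63.7 CPM against 53.5 and 87.7 CPM) and HSPA1B (53.2, 137 and 116 CPM against 102 and 211 CPM), nor their sum (log2 fold change 0.42, adjusted p = 0.459), nor HSPB1 (461, 582 and 569 CPM against 514 and 714 CPM). The median log2 fold change of the 10 members was 0.91, against 0.01 over all genes. By promoter, the 7 called genes were all 3 members with 3 units, 1 of the 4 with 2 units and all 3 with neither in the window. HSPE1 is among the last, with the HSPD1 match just outside its window. These calls rest on 2 knockdown libraries and on a spread shared over the 6 groups of the line: with siNRP1#5 and siNT alone in the fit none of the 7 was called (adjusted p 0.101 to 0.306), and without siNRP1#5 replicate 2 HSP90AA1 (0.0709), HSPE1 (0.0663), HSPH1 (0.0730) and HSPD1 (0.330) lost the call. Without siNRP1#5 replicate 3 it was HSPH1 (0.0535), DNAJB1 (0.0843) and BAG3 (0.436), without siNT replicate 1 HSPE1 (0.0582), HSPH1 (0.0673), HSPD1 (0.0901) and BAG3 (0.124), without siNT replicate 2 HSPH1 (0.0676), HSPD1 (0.124) and BAG3 (0.103), and without siNT replicate 3 HSPD1 (0.0675), while HSPA8 held in each.

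In HS578T, 4 of the 10 members rose with siNRP1#5 over siNT and none fell, where 18.7% of all 19661 genes were called. HSP90AA1 was at 499, 440.1 and 274 CPM in siNT and at 674, 1302 and 1892 CPM in siNRP1#5. It was 3.17-fold higher (log2 fold change 1.67 ± 0.39, adjusted p = 0.00818). HSPH1 was at 51.1, 38.2 and 22.1 CPM in siNT and at 59.9, 112 and 115 CPM in siNRP1#5 (log2 fold change 1.35 ± 0.33, adjusted p = 0.00927). HSPE1 was at 102, 107 and 70.9 CPM against 159.7, 183 and 268 CPM (log2 fold change 1.12 ± 0.25, adjusted p = 0.00561), and HSPD1 at 342, 247 and 174 CPM against 403, 568 and 534 CPM (log2 fold change 0.97 ± 0.26, adjusted p = 0.0146). For these 4 genes all 3 knockdown libraries lay above all 3 controls. HSPA8 also did not overlap, with 1478, 1693 and 1419 CPM against 1893, 2099.9 and 2660.0 CPM, but was not called (log2 fold change 0.53, adjusted p = 0.117). The genes HSPA1A, HSPA1B, HSPB1, DNAJB1 and BAG3 had log2 fold changes of -0.17 to 0.44 and were not called. After subtraction of the MDA-MB-231 share by 3 markers the same 4 genes were called, with log2 fold changes of 1.80 for HSP90AA1, 1.39 for HSPH1, 1.32 for HSPE1 and 1.04 for HSPD1. By the 53 markers they were 1.81, 1.40, 1.31 and 1.05. The 3-marker share was taken from the siNRP1#5 libraries alone and the 53-marker share from all HS578T siRNA libraries, siNT among them. Both used the mean profile of MDA-MB-231 siNT. A share with the profile of MDA-MB-231 siNRP1#5 cells was not tested. Leaving out single libraries ended the HSPD1 call without siNRP1#5 replicate 2 (adjusted p = 0.0519), siNT replicate 2 (0.0556) or siNT replicate 3 (0.0707), and no other of the 4. The SUM159PT share of replicate 2 was not subtracted, and its part in these results was not tested.

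**Figure D2:**
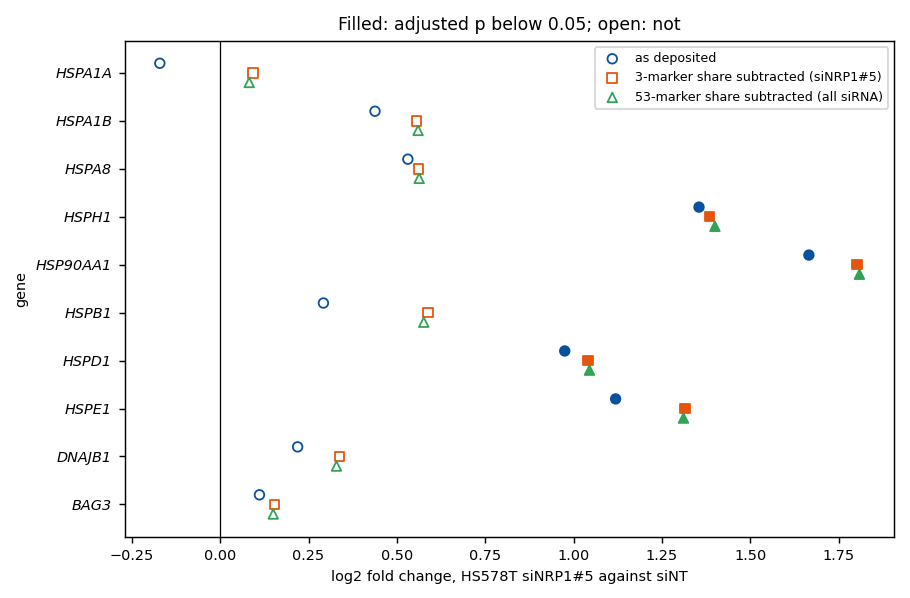
The log2 fold change of each member for HS578T siNRP1#5 against siNT (x axis) is plotted as deposited (circles) and after subtraction of the MDA-MB-231 share estimated from 3 (squares) and from 53 marker genes (triangles), filled where called. The values of HSP90AA1 were 1.67, 1.80 and 1.81, and those of the other 3 called members shifted by less than 0.3.

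In MDA-MB-231, 1 of the 10 members rose with siNRP1#5 and 2 fell, where 29.4% of all 18800 genes were called, a share close to that of the members. HSPB1 was at 247, 273 and 251 CPM in siNT and at 303, 500.3 and 358 CPM in siNRP1#5, with no overlap (log2 fold change 0.61 ± 0.16, adjusted p = 0.00744). HSPA1A was at 152, 125 and 79.4 CPM against 93.3, 73.7 and 52.6 CPM (log2 fold change -0.68 ± 0.23, adjusted p = 0.0336), and HSPA1B at 231, 203 and 137 CPM against 153, 147 and 104 CPM (-0.48 ± 0.18, adjusted p = 0.0498). A difference between the 3 lines in the siNRP1#5 response was not shown for these genes (adjusted p = 0.754 for HSPB1, 0.419 for HSPA1A and 0.0941 for HSPA1B). For both genes the groups overlapped, since replicate 3 was the lowest library of siNT as well as of siNRP1#5. The sum of the pair fell by 0.56 on the log2 scale (adjusted p = 0.0389). HSP90AA1 was at 1075, 719 and 687 CPM against 1818, 1407 and 696 CPM and HSPE1 at 117, 98.0 and 82.5 CPM against 169, 177 and 84.3 CPM, and neither was called (adjusted p 0.0827 and 0.0777). Replicate 3 was the lowest of its group for 9 of the 10 members in siNT, 8 in siNRP1#3 and 9 in siNRP1#5. Without siNRP1#5 replicate 3, HSP90AA1 (log2 fold change 0.98, adjusted p = 0.00344) and HSPE1 (0.83, 0.00143) passed the threshold and HSPA1A (-0.49, 0.138) and HSPA1B (-0.32, 0.189) did not. Leaving out siNT replicate 1 also ended the HSPA1A and HSPA1B calls (0.189 and 0.267) and brought HSP90AA1 past the threshold (0.0403), and siNT replicate 2 ended both (0.0802 and 0.123), siNRP1#5 replicate 2 both (0.0763 and 0.0549) and HSPB1 (0.0691). Without siNT replicate 3, DNAJB1 passed at a log2 fold change of -0.43 (0.0328).

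**Figure D3:**
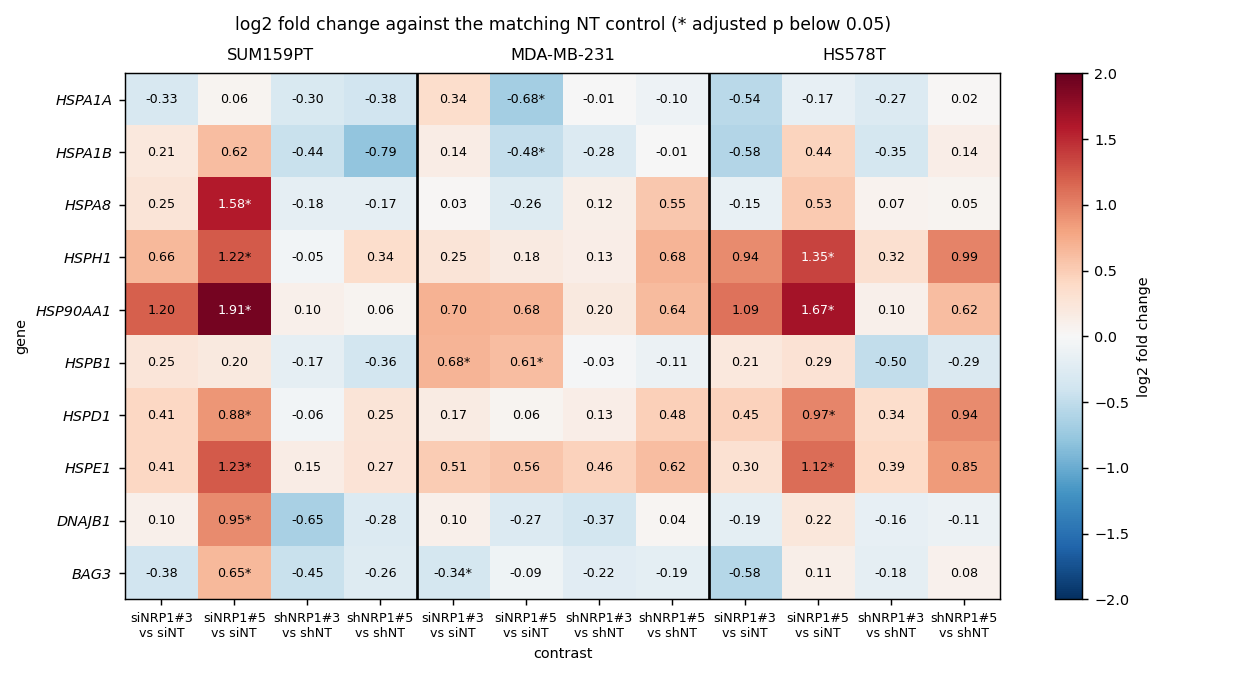
The heat map gives the log2 fold change of each member (rows) for each knockdown against its own non-targeting control in each line (columns), with the value written in the cell and an asterisk where the adjusted p was below 0.05. In SUM159PT siNRP1#5 7 members were called and in HS578T siNRP1#5 4 were, all above 0, whereas no shRNA comparison had any in these fits of 6 groups per line.

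Whether the response to a reagent differed between the 3 lines was tested in a fit over all 52 libraries. For siNRP1#5 it differed for HSPA8 (adjusted p = 0.00410), DNAJB1 (0.00445) and BAG3 (0.0444), 3 of 10 members against 18.2% of all genes. For HSPA8 the log2 fold change was 1.58 in SUM159PT, 0.53 in HS578T and -0.26 in MDA-MB-231. For DNAJB1 it was 0.95, 0.22 and -0.27, and for BAG3 0.65, 0.11 and -0.09. A difference between lines was not shown for HSP90AA1, HSPH1, HSPD1 and HSPE1, the 4 genes that rose in both SUM159PT and HS578T. None of them was called in MDA-MB-231 in the main fit. There DESeq2 called HSP90AA1 (log2 fold change 0.69, adjusted p = 0.0382) and HSPE1 (0.57, 0.0443) higher. No filter also called both (1.73e-05 and 0.00221). Without the HS578T siNRP1#5 libraries HSPA8 and DNAJB1 still differed, and BAG3 lost the call (0.0849), as it did with RLE size factors (0.0900) and with no filter on low counts (0.448). With no filter HSP90AA1 (0.00156), HSPH1 (0.00580), HSPA1B (0.0252) and HSPD1 (0.0415) were called in this test. For siNRP1#3, shNRP1#3 and shNRP1#5 no member differed between lines, where 3.42%, 0.747% and 3.81% of all genes did. In these tests by edgeR 0, 0 and 1 members had an unadjusted p under 0.05, the last being HSPA1B, and DESeq2 called none.

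With siNRP1#3, 2 of the 10 members were called in MDA-MB-231, where 25.7% of all genes were, and none in SUM159PT (8.66% of all genes) or HS578T (4.65% of all genes). In MDA-MB-231 HSPB1 was at 433, 353 and 428 CPM against the 247, 273 and 251 CPM of siNT (log2 fold change 0.68 ± 0.16, adjusted p = 0.00467). It lay above all controls under both siRNAs, which share the siNT libraries. BAG3 was at 104, 96.7 and 101 CPM against 130.2, 148 and 111 CPM, below all controls (log2 fold change -0.34 ± 0.12, adjusted p = 0.0358). The BAG3 call was lost on leaving out siNRP1#3 replicate 1 (adjusted p = 0.0629), 2 (0.106) or 3 (0.0746) or siNT replicate 1 (0.0940) or 2 (0.164), and without siNT replicate 1 HSP90AA1 was called there (log2 fold change 0.95, 0.0423). HSP90AA1, called in neither of the other lines, was above all controls in both. In SUM159PT it was at 1524, 1213 and 1489 CPM against 587, 288 and 974 CPM (log2 fold change 1.20 ± 0.38, adjusted p = 0.0629). The replicate numbers paired the libraries in this comparison, and with the replicate block it was 1.27 with an adjusted p of 0.0419. Without siNT replicate 3 it was 1.69 (adjusted p = 0.0176). In HS578T it was at 542, 1095 and 953 CPM against 499, 440.1 and 274 CPM (log2 fold change 1.09 ± 0.39, adjusted p = 0.119). BAG3 was below all controls in all 3 lines, at 76.6, 79.1 and 79.3 CPM against 90.0, 90.8 and 125 CPM in SUM159PT (adjusted p = 0.225) and at 67.3, 70.7 and 94.1 CPM against 101, 106 and 140.3 CPM in HS578T (0.0836). Without HS578T siNRP1#3 replicate 3, BAG3 (-0.74, adjusted p = 0.0453) and HSPA1B (-1.07, 0.0347) were called in that line. At an unadjusted p under 0.05 in edgeR stood 2 members in SUM159PT (HSPH1 and HSP90AA1) and 3 in HS578T (HSPH1, HSP90AA1 and BAG3). DESeq2 called HSP90AA1 in SUM159PT and HSPH1 and BAG3 in HS578T, and limma called 1 member in SUM159PT and none in HS578T. In MDA-MB-231 HSP90AA1 was called higher by DESeq2 (log2 fold change 0.70, adjusted p = 0.0386). It was also called there with the compared groups alone (0.0305), upper quartile size factors (0.0407) and no filter (7.70e-06).

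No member was called in any of the 6 shRNA comparisons in the fits of 6 groups per line. The background was 1.40% of all genes for shNRP1#3 and 5.94% for shNRP1#5 in SUM159PT, 3.65% and 20.7% in MDA-MB-231, and 0.0356% and 0.946% in HS578T. At an unadjusted p under 0.05 in edgeR stood, with shNRP1#3 and shNRP1#5, 2 and 1 members in SUM159PT, 1 and 3 in MDA-MB-231 and 0 and 3 in HS578T. DESeq2 called HSPE1 in MDA-MB-231 shNRP1#5 and HSPE1 and HSPD1 in HS578T shNRP1#5, and limma called none. With the 2 groups alone in the fit, 5 members were called higher in MDA-MB-231 shNRP1#5. These were HSPH1 (adjusted p = 0.000609), HSPE1 (0.000800), HSPA8 (0.00159), HSP90AA1 (0.0311) and HSPD1 (0.0422). No filter called the same 5, HSPH1, HSPD1 and HSPE1 higher in HS578T shNRP1#5, and HSPA1B lower in SUM159PT shNRP1#5. The highest fold changes were in HS578T shNRP1#5, where HSPH1 was at 147, 142 and 197 CPM against 71.9, 72.4 and 97.0 CPM in shNT (log2 fold change 0.99 ± 0.32, adjusted p = 0.137). HSPD1 was at 667, 769.7 and 867 CPM against 365, 374 and 445 CPM (0.94 ± 0.26, adjusted p = 0.0864), and HSPE1 at 131, 169 and 162 CPM against 77.4, 83.4 and 92.0 CPM (0.85 ± 0.25, adjusted p = 0.101). These 3 genes and HSP90AA1 were above all controls in that group. In MDA-MB-231 shNRP1#5, HSPA8 was at 3124, 3600.1 and 3529 CPM against 2729, 2241 and 2092 CPM (0.55 ± 0.24, adjusted p = 0.117). HSPH1, HSP90AA1 and HSPE1 were likewise above all controls there (log2 fold changes 0.68, 0.64 and 0.62, adjusted p 0.164, 0.122 and 0.0636). In SUM159PT neither shRNA had a member above all controls, and 4 members lay below all of them with each. The share of all genes that lay outside their controls in this way was not counted, so these numbers of members have no background. The lowest value in SUM159PT was HSPA1B with shNRP1#5, at 120.2, 77.9 and 146 CPM against 177, 199 and 232 CPM (log2 fold change -0.79 ± 0.33, adjusted p = 0.204).

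The #5 reagents carry 1 sequence on separate carriers with separate controls, so their responses could be set against each other. They did not reduce NRP1 equally. Its log2 fold changes with siNRP1#5 and shNRP1#5 were -4.31 and -2.30 in SUM159PT, -4.88 and -1.05 in MDA-MB-231, and -2.66 and -2.09 in HS578T. That difference was called in SUM159PT (adjusted p = 0.0315) and MDA-MB-231 (8.14e-09) but not in HS578T (0.536). The HS578T values in this comparison of reagents are as deposited, with the MDA-MB-231 share in siNRP1#5. NRP1 was at 11.3 to 26.2 CPM in HS578T siNRP1#5 and at 63.0 to 85.8 CPM in MDA-MB-231 siNT. The part of the share in the NRP1 value was not tested. In SUM159PT the siRNA response was larger for DNAJB1, by 1.23 ± 0.31 on the log2 scale (adjusted p = 0.0475), the 1 member of 10 called against 2.51% of all genes. DNAJB1 was at 178 and 240.1 CPM with siNRP1#5 over 77.6, 129 and 119 CPM, and at 149, 129 and 176 CPM with shNRP1#5 over 162, 184 and 215 CPM. The differences for HSP90AA1 (1.85 ± 0.57, adjusted p = 0.0846) and HSPA8 (1.76 ± 0.49, adjusted p = 0.0643) were larger but missed the threshold. In MDA-MB-231 1 member was called against 23.7% of all genes: HSPB1 rose with the siRNA and was at 152, 139 and 140.4 CPM with shNRP1#5 against 132, 178 and 159 CPM in shNT, a difference of 0.73 ± 0.23 (adjusted p = 0.0265). In HS578T none was called, against 0.854% of all genes, with none at an unadjusted p under 0.05 in edgeR and none called by DESeq2 or limma. The difference for HSPD1 there was 0.03 with a 95% interval from -0.72 to 0.79. Delivery, selection and time of harvest differed between the reagents together and cannot be told apart. The same holds for the depth of NRP1 reduction in SUM159PT and MDA-MB-231, where its difference was called.

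**Figure D4:**
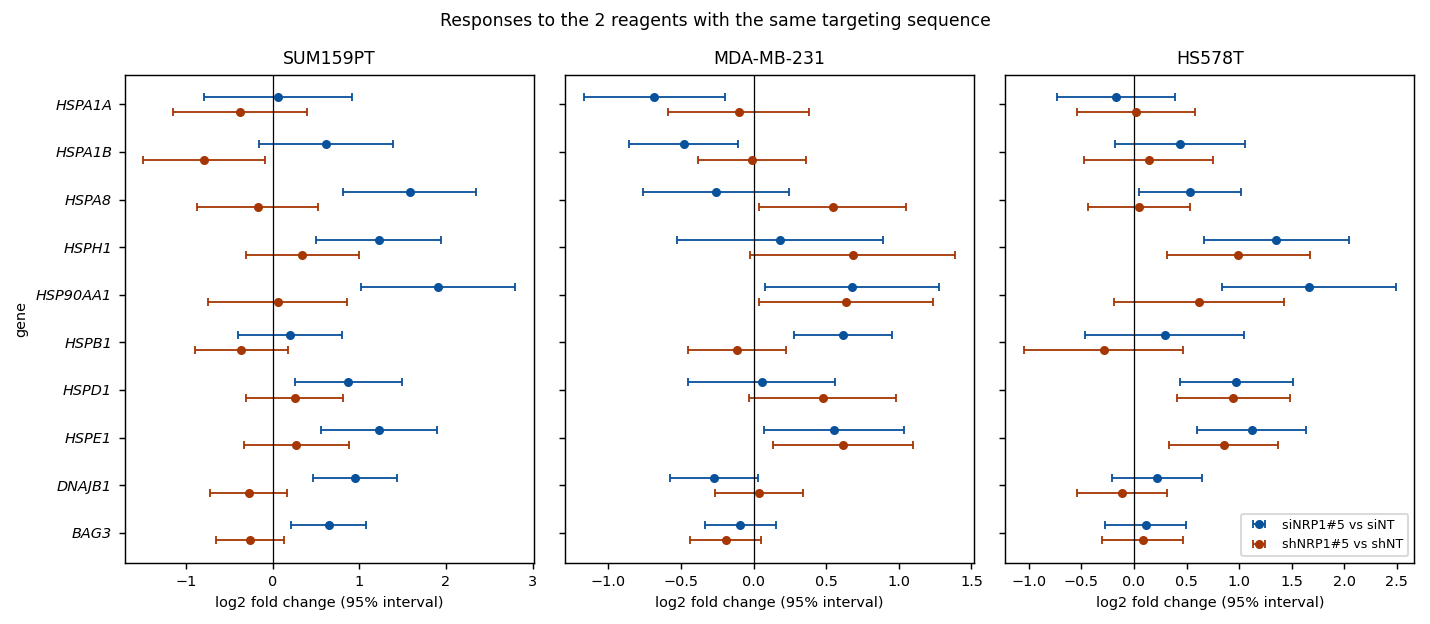
For each line the log2 fold change of each member (x axis, with 95% intervals as bars) is plotted for siNRP1#5 against siNT in blue and shNRP1#5 against shNT in brown. In SUM159PT HSP90AA1 and HSPA8 lie at 1.91 and 1.58 with the siRNA and at 0.06 and -0.17 with the shRNA, and in HS578T HSPD1 lies at 0.97 and 0.94.

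The non-targeting controls themselves differed in members. In SUM159PT shNT exceeded siNT for 4 of 10 members, where 14.4% of all genes were called. HSPD1 was at 756, 519.9 and 1014 CPM in shNT against 324, 254 and 331 CPM in siNT (log2 fold change 1.31 ± 0.27, adjusted p = 0.00810). HSPH1 was at 174, 135 and 308 CPM against 68.8, 48.4 and 107 CPM (1.43 ± 0.31, adjusted p = 0.0106). HSPA8 (1.13, adjusted p = 0.0334) and DNAJB1 (0.75, adjusted p = 0.0268) were the others, and in all 4 the groups did not overlap. This comparison shares the siNT libraries with the knockdown comparisons, among them replicate 1, the lowest siNT library for 6 of the 10 members. Without it HSPA8 (0.77, adjusted p = 0.0946) and DNAJB1 (0.55, 0.111) were not called. Without shNT replicate 3 none of the 4 was (HSPD1 0.0560, HSPH1 0.0704, DNAJB1 0.121, HSPA8 0.148), and without shNT replicate 1 HSPA8 (0.0820) and DNAJB1 (0.0502) were not. Calls were gained for HSP90AA1 without shNT replicate 2 (0.0447) or siNT replicate 3 (0.0186), for BAG3 without siNT replicate 3 (0.0415) and for HSPA1A without siNT replicate 2 (0.0397). HSPE1 did not follow HSPD1 here, with 177, 137 and 189.8 CPM against 133, 118 and 254 CPM (-0.03 ± 0.29).

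In HS578T shNT also exceeded siNT for 4 of 10 members, where 17.9% of all genes were called. HSPA8 was at 2098, 2864 and 3291 CPM against 1478, 1693 and 1419 CPM (log2 fold change 0.87 ± 0.23, adjusted p = 0.0164). DNAJB1 was at 270.4, 322 and 351 CPM against 169, 179 and 235 CPM (0.72 ± 0.21, adjusted p = 0.0239). HSPH1 (1.14, adjusted p = 0.0231) and HSP90AA1 (1.16, adjusted p = 0.0470) also rose, without overlap. Without shNT replicate 3 all 4 calls were lost (adjusted p 0.0885 to 0.172). Lost without shNT replicate 2 were HSP90AA1 (0.119), HSPA8 (0.0542) and DNAJB1 (0.0696), without siNT replicate 1 HSP90AA1 (0.0692), HSPA8 (0.0563) and DNAJB1 (0.0961), without siNT replicate 2 HSP90AA1 (0.107), HSPH1 (0.0729) and DNAJB1 (0.0982), and without siNT replicate 3 HSP90AA1 (0.136) and HSPH1 (0.0752). Without siNT replicate 1 HSPD1 was called as well (0.0372). Subtraction of the MDA-MB-231 share by 3 markers altered only the siNRP1#5 libraries, and so neither group compared here. It could move these values only through the shared fit. By 53 markers all HS578T siRNA libraries were altered, siNT among them. HSP90AA1 was at an adjusted p of 0.0657 by 3 markers and 0.0702 by 53, and the other 3 calls stood. In MDA-MB-231 2 of 10 members were lower in shNT, where 20.6% of all genes were called. HSPB1 was at 132, 178 and 159 CPM against 247, 273 and 251 CPM, with no overlap (-0.75 ± 0.16, adjusted p = 0.00309), and this call held on leaving out each library. HSPA1B was at 122, 145 and 141 CPM against 231, 203 and 137 CPM (-0.52 ± 0.18, adjusted p = 0.0477), and the sum with HSPA1A was not called (-0.40, adjusted p = 0.160). Its call was lost without shNT replicate 1 (0.160), 2 (0.0811) or 3 (0.0993) or siNT replicate 1 (0.240) or 2 (0.130). Carrier, puromycin and time of harvest also differed together between shNT and siNT.

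A single transcript led in all 52 libraries for 9 of the 10 members, among them HSP90AA1-201 with 75.8% to 84.0% of the gene by the deposited isoform percentages, DNAJB1-201 with 79.0% to 90.5% and BAG3-201 with 85.7% to 94.0%. HSPA8-224 led with 31.4% to 65.2%. HSPH1 was the exception. HSPH1-206, which the annotation types as subject to nonsense-mediated decay, led in 43 of 52 libraries with 17.6% to 50.1% over all 52. HSPH1-202 led in the 9 HS578T siRNA libraries, siNT among them, and in no other library. These percentages are model estimates for transcripts that share most exons.

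Other chaperone genes were followed in 5 lists, with fold changes on the log2 scale. The counts are read against the share of all genes called in either direction, which for siNRP1#5 was 17.9% in SUM159PT, 18.7% in HS578T and 29.4% in MDA-MB-231, for siNRP1#3 8.66%, 4.65% and 25.7% in the same order, and for shNRP1#5 in MDA-MB-231 20.7%. Of 8 genes of the cytosolic chaperonin TRiC, which folds actin and tubulin, 7 rose in SUM159PT siNRP1#5 (median log2 fold change 1.10, CCT2 1.31) and 5 in HS578T siNRP1#5 (median 0.64). Between the controls, in comparisons that share the same siNT libraries, 6 were higher in shNT than in siNT in SUM159PT (median 0.96) and 5 in HS578T (median 0.68). In MDA-MB-231 1 rose with siNRP1#5 and 5 with shNRP1#5 (medians 0.20 and 0.46). Of 23 tested genes known to respond to HSF1, beyond the members, 10 rose and 1 fell in SUM159PT siNRP1#5, with CHORDC1, an HSP90 co-chaperone, at 1.43 and the HSP110 relative HSPA4L at -1.88. In HS578T siNRP1#5 5 of 24 rose and 2 fell, and HSPA4L was at 2.16, whereas in MDA-MB-231 siNRP1#5 2 of 22 rose and 1, HSPA4L at -1.41, fell, a share below that of all genes. In MDA-MB-231 shNRP1#5 7 of 22 rose and none fell, with HSPA6, a strictly inducible HSP70, at 2.01 and HSPB8, a BAG3 partner, at 1.10. With siNRP1#3 the same list had 1 up and 2 down in SUM159PT, 4 up and 3 down of 22 in MDA-MB-231, a share near that of all genes, and none in HS578T. In shNT against siNT it had 5 up and 1 down in SUM159PT, 0 up and 2 down in MDA-MB-231 and 6 up and 2 down in HS578T, where 14.4%, 20.6% and 17.9% of all genes were called.

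Of 13 cytosolic co-chaperones, 4 rose and none fell with siNRP1#5 in both SUM159PT and HS578T, and 2 rose in MDA-MB-231, again below the share of all genes there. In shNT against siNT 4 rose in SUM159PT and 3 in HS578T. BAG2, an exchange factor that inhibits the ubiquitin ligase STUB1, fell by 2.23 on the log2 scale in SUM159PT and by 2.22 in MDA-MB-231 with siNRP1#3. FKBP5, an HSP90 co-chaperone of steroid receptors, was 2.40 higher in HS578T siNRP1#5 than in siNT, and it had a value of -4.41 in the HS578T controls over those of MDA-MB-231, the line whose markers were found in these libraries. For HSPA4L the value between those controls was -3.81. The list values of HS578T siNRP1#5 are as deposited, and the part of the MDA-MB-231 share in them was not tested. Of 10 chaperones and proteases of mitochondria and the endoplasmic reticulum, 6 rose in SUM159PT siNRP1#5 and 5 rose and 1 fell in HS578T siNRP1#5. In MDA-MB-231 3 rose and 1 fell with siNRP1#5, where 29.4% of all genes were called. With shNRP1#5 3 also rose and 1 fell there (20.7% of all genes). HSPA5, the HSP70 of the endoplasmic reticulum, was at 2.39 in HS578T siNRP1#5 and at 1.26 in HS578T siNRP1#3. In MDA-MB-231 7 of these 10 were lower in shNT than in siNT. Of the heat shock factors HSF1, HSF2 and HSF4, none rose with an siRNA in any line. In MDA-MB-231 HSF4 fell with siNRP1#3 (-1.04, adjusted p = 0.0312) and rose with shNRP1#3 (1.41, 0.0235). It was also lower there in shNT than in siNT (-1.18, 0.0182). In SUM159PT siNRP1#5, where 7 members rose, HSF1 was at 0.32 ± 0.25 (adjusted p = 0.391) and HSF2 at 0.32 ± 0.30 (0.495). The median level of HSF1 was 102 CPM in SUM159PT, 139 CPM in MDA-MB-231 and 299.6 CPM in HS578T, and that of HSF2 was 11.9 to 18.5 CPM. The RNA of HSF1 in MDA-MB-231 was lower in shNT than in siNT by 0.64 on the log2 scale, and in the controls it was higher in HS578T than in SUM159PT (1.61) or MDA-MB-231 (1.29). HSF1 activity is set by trimerisation and modification of the protein, which were not measured.

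Over the 52 libraries, with each line centred on its own mean, the members fell into looser and tighter pairs, given here as a description. The libraries share lines and groups and include the 3 HS578T siNRP1#5 libraries, and no p is attached. HSPH1 ran with HSPD1 (Pearson r = 0.897, n = 52) and with HSP90AA1 (0.846), HSPA1A with HSPA1B (0.822) and HSPA8 with DNAJB1 (0.758). HSPB1 ran apart from HSPH1 (-0.28). The gene with the highest correlation to HSPD1 was CCT6A (0.949), to DNAJB1 it was the HSP70 and HSP90 organiser STIP1 (0.856), to HSPH1 EED (0.906), to HSPA8 PDSS1 (0.838), to HSPE1 NUP35 (0.884), to HSPB1 NDUFB11 (0.832) and to BAG3 SF3B2 (0.786). For HSP90AA1 it was its pseudogene HSP90AA2P (0.977), whose reads can come from the parent gene. The spread within groups differed among members: the pooled SD of log2 CPM was 0.50 for HSP90AA1 and 0.45 for HSPH1, against 0.17 for BAG3 and 0.22 for DNAJB1, and 0.44 for the median gene. Among the 1000 genes of highest level 2.30% had a larger SD than HSP90AA1 and 4.40% a larger SD than HSPH1, against 92.7% for BAG3 and 69.9% for DNAJB1.

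**Figure D5:**
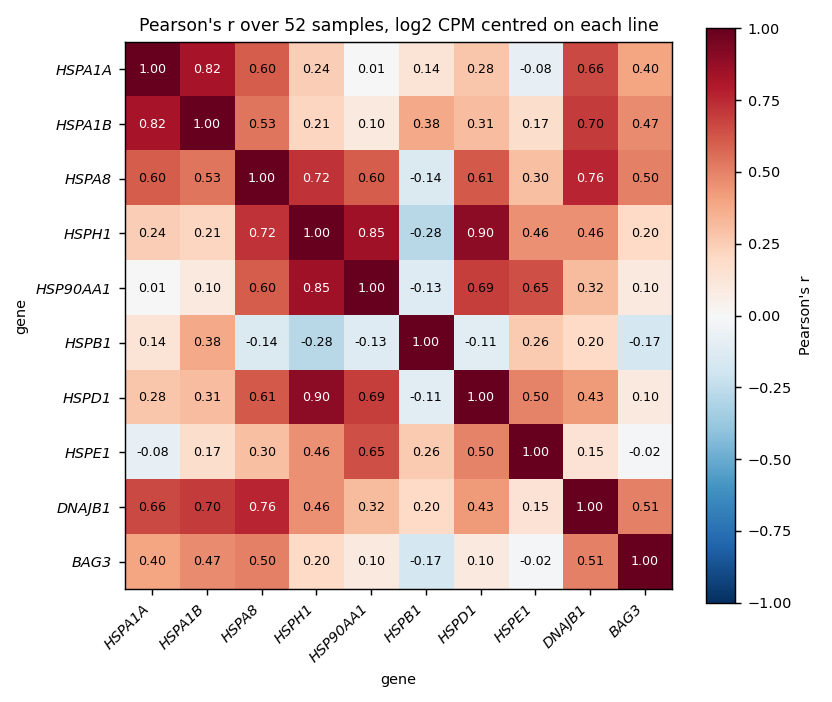
Each cell gives Pearson's r between 2 members over 52 libraries, on log2 CPM centred within each cell line. HSPH1 is at 0.897 with HSPD1, 0.846 with HSP90AA1 and 0.72 with HSPA8, and HSP90AA1 is at 0.694 with HSPD1. HSPB1 is at -0.28 with HSPH1.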

How the data were processed

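Bulk RNA of 52 cell line samples was sequenced as stranded, poly(A)-selected, paired-end libraries. The authors trimmed reads with Trim Galore 0.6.5 after FastQC 0.11.9, aligned them with STAR 2.7.2b to GRCh38 and quantified genes and transcripts with RSEM 1.3.3, and deposited expected counts per gene, which are estimates that divide ambiguous fragments by probability and need not be whole. They also deposited TPM, scaled to a common total within each library after adjustment for transcript length, and isoform percentages, the percent of a gene's abundance assigned to each transcript. No column of another series was present.

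Samples were grouped by cell line and treatment from the sample labels. Expected counts were rounded and tested with edgeR 4.0.16 (R 4.3.3, TMM size factors, filterByExpr, robust quasi-likelihood test), in 1 fit of 6 groups per cell line and 1 fit of all 52 samples for tests between lines. Adjusted p-values are Benjamini-Hochberg values over all genes tested, with a threshold of 0.05, and all tests were two-sided. CPM used TMM-scaled library sizes. Overlap between groups was counted for the members only, without a share over all genes. The members and the gene lists were chosen with earlier results of these data known. All 10 members are named, with up to 3 genes per contrast from the lists, those of largest absolute log2 fold change among the called, and the 1 gene most correlated with each member. The fits were tested on simulated counts. Replicates were separate libraries that differed by more than sampling noise (lowest chi-square per degree of freedom 11.0). With a correlation of deviations over 0.1 in every one of 3 pairs, replicate numbers paired the libraries in 4 comparisons (siNRP1#3 and shNRP1#3 in SUM159PT, siNRP1#5 in MDA-MB-231, shNRP1#5 in HS578T), with correlations from 0.111 to 0.61.

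Alternatives were DESeq2 1.42.0, RLE and upper quartile size factors, no filter, limma 3.58.1 on log2(TPM + 1), the replicate block, the compared groups alone, HSPA1A and HSPA1B summed, each replicate left out, and HS578T without its siNRP1#5 group or after subtraction of the MDA-MB-231 share. The share from 53 markers was added after seeing the data. Isoform percentages were summarised without a test. Gene positions are from the GENCODE annotation supplied with GRCh38, and promoter windows are from RefSeq on GRCh38.p14, with all 10 members matched by symbol. Proteins were not analysed here.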

Additional observations from a re-analysis of the deposited data

Results flagged for a closer look

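The response to siNRP1#5 differed between the 3 cell lines for 3 members in the test over all 52 libraries. These were HSPA8 (adjusted p = 0.00410), DNAJB1 (adjusted p = 0.00445) and BAG3 (adjusted p = 0.0444). HSPA8 changed by 1.58 on the log2 scale in SUM159PT, 0.53 in HS578T and -0.26 in MDA-MB-231. DNAJB1 changed by 0.95, 0.22 and -0.27 in the same order, and BAG3 by 0.65, 0.11 and -0.09. SUM159PT entered with replicates 2 and 3 of siNRP1#5, and the HS578T libraries held the MDA-MB-231 share given above. The part of that share in the test was not tested beyond the fit without those libraries, in which HSPA8 and DNAJB1 kept the call and BAG3 lost it (adjusted p = 0.0849). BAG3 also lost it with RLE size factors (0.0900) and with no filter on low counts (0.448).

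The siRNA and the shRNA with the #5 sequence gave different responses for 1 member in SUM159PT and 1 in MDA-MB-231. In both lines NRP1 also fell further with the siRNA, and the part of this in the responses was not tested. DNAJB1 in SUM159PT was 1.23 higher on the log2 scale with siNRP1#5 than with shNRP1#5, each against its own control (adjusted p = 0.0475). HSPB1 in MDA-MB-231 was 0.73 higher (adjusted p = 0.0265). The HSPB1 level of the controls also differed there, with 247 to 273 CPM in siNT and 132 to 178 CPM in shNT.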

How the results depend on the processing

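Of 2764 member results under alternative settings, 2568 stayed on the same side of the threshold, 101 lost the call and 95 gained it. They include the tests of a response between lines, which have no fold change and so no sign. Among the others no called fold change changed sign, and 100 that were called in neither setting did. Of 280 counts of called members, 62 moved by over 1.5 times or to or from 0. In SUM159PT siNRP1#5 the count of 7 became 2 with limma and 0 with the compared groups alone. In MDA-MB-231 siNRP1#5 the count of 3 became 5 with DESeq2 or no filter and 0 with the compared groups alone. DESeq2 gave 1 in SUM159PT siNRP1#3, 2 in HS578T siNRP1#3, 1 in MDA-MB-231 shNRP1#5, 2 in HS578T shNRP1#5, 4 for shNT against siNT in MDA-MB-231 and 4 for the #5 difference in SUM159PT. No filter gave 1 in SUM159PT siNRP1#3 and shNRP1#5, 2 in HS578T siNRP1#3, 5 in MDA-MB-231 shNRP1#5, 3 in HS578T shNRP1#5, 5 for shNT against siNT in MDA-MB-231, 4 and 3 for the #5 difference in SUM159PT and MDA-MB-231, and 6 for siNRP1#5 between lines. The compared groups alone gave 4 in MDA-MB-231 siNRP1#3, 2 and 5 in MDA-MB-231 shNRP1#3 and shNRP1#5, and 4 and 2 for shNT against siNT in MDA-MB-231 and SUM159PT. Limma gave 1 in SUM159PT siNRP1#3, 2 for shNT against siNT in HS578T and 0 for the #5 difference in SUM159PT and MDA-MB-231. Upper quartile factors gave 1 in SUM159PT siNRP1#3, 1 in MDA-MB-231 shNRP1#5 and 0 for the #5 difference in SUM159PT, and summing HSPA1A and HSPA1B gave 1 for shNT against siNT in MDA-MB-231. The causes of these shifts were not tested. With 1 library left out the counts ran from 3 to 6 in SUM159PT siNRP1#5, 0 to 1 in SUM159PT siNRP1#3, 0 to 4 in MDA-MB-231 siNRP1#5, 1 to 2 in MDA-MB-231 siNRP1#3, 3 to 4 in HS578T siNRP1#5 and 0 to 2 in HS578T siNRP1#3. For shNT against siNT they ran from 0 to 6 in SUM159PT, 1 to 2 in MDA-MB-231 and 0 to 4 in HS578T, and they stayed at 0 in all 6 shRNA knockdown comparisons.

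The replicate block gave 1 called member in SUM159PT siNRP1#3, where numbers paired the libraries (HSP90AA1), and changed no member call in the other 3 paired comparisons. Where the libraries shared only a number, the replicate block gave 1 in MDA-MB-231 shNRP1#5 and 2 for the #5 difference in SUM159PT and in MDA-MB-231, and HSPD1 lost its call in SUM159PT siNRP1#5 (adjusted p = 0.0526). The #5 difference in HS578T has no value without the siNRP1#5 group. The lowest count of any member in any library was 700.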
